A study of Homo sapiens with 6 samples.

Results

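TGF-beta signalling in the T24 data was followed through 10 genes, selected from the 78932 rows of the deposited count table by their gene symbols: the ligands TGFB1 and TGFB2, the receptors TGFBR1 and TGFBR2, the co-receptor TGFBR3, the signal transducers SMAD2, SMAD3 and SMAD4, and the inhibitors SMAD7 and SKIL. All 10 symbols were found once, and 9 of the 10 reached the count minimum, set at 10 or more counts in 3 or more of the libraries, as did 18474 genes in all. T24 is a human bladder carcinoma cell line. Poly(A) RNA was sequenced from 3 cultures transfected with the control siRNA (siNC) and from 3 transfected with siRNA against TRIM28 (siTRIM28), a chromatin-bound corepressor and SUMO ligase. Both groups were the same line, grown in medium with fetal bovine serum. The library titles name no batch, and all libraries were treated as 1 batch. The labels name no added TGF-beta and do not say which TRIM28 siRNA was used. The labels call the 3 libraries of a group biological replicates without describing how the cultures were separated. The p-values below therefore set the difference between the groups against the spread between these libraries only.

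TGF-beta is secreted in a latent form, and once released it is bound by TGFBR2, which recruits and phosphorylates TGFBR1. The activated TGFBR1 phosphorylates SMAD2 and SMAD3, and these join SMAD4 and enter the nucleus to switch target genes on or off. SMAD7 and SKIL are negative regulators that act on the receptor and in the nucleus, and both are themselves known as TGF-beta targets. In epithelial cells the pathway is known for growth arrest and for epithelial-mesenchymal transition.

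Total counts were 12989362 to 13942383 in siNC and 11712623 to 14018052 in siTRIM28. TRIM28 itself had 1419, 1393 and 1382 counts in siNC and 130, 96 and 109 in siTRIM28, and fell by 3.54 on the log2 scale (standard error 0.0722, adjusted p = 1.03e-10, edgeR). Some replicates were much closer than others. Chi-square per degree of freedom over the gene counts, 1 under counting noise alone, was 1.08 for siNC replicates 1 and 2 and 1.22 for siTRIM28 replicates 2 and 3, but 4.17 to 6.25 for every pair that held siNC replicate 3 or siTRIM28 replicate 1. Where a call or a count below changed without these 2 libraries, this is said beside it. The main fit counted all 6 libraries as separate replicates, although those of a close pair may not be, and an alternative summed the close pairs. Of 14 urothelial or epithelial markers, 5 passed the minimum and 9 did not, among them EPCAM, CDH1, GATA3 and KRT5, while KRT20 and UPK1B had no count in any library. The summed level of these markers was 191 to 197 CPM (counts scaled to the size of the library) in siNC and 212 to 219 in siTRIM28. KRT7, KRT8 and UPK1A were higher in siTRIM28, and their part in the results was not tested. Of 9 fibroblast markers 3 passed the minimum, with a summed level of 29.2 to 31.1 CPM in siNC and 31.3 to 35.4 in siTRIM28, and FAP had no count. Of 6 immune markers only CD68, a lysosomal protein also found outside immune cells, passed (summed level 345 to 349 and 337 to 360 CPM), and CD3E had no count. None of 4 endothelial markers passed (0.432 to 0.503 and 0.712 to 1.01 CPM), and CDH5 and KDR had no count. In bulk RNA, fewer cells of a kind and less RNA per cell cannot be told apart.

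Among the 9 genes tested, SMAD7, TGFBR2 and TGFBR1 were higher after TRIM28 knockdown and TGFBR3 was lower, whereas TGFB1, SMAD2, SMAD3, SMAD4 and SKIL did not pass the test. SMAD7 had the largest rise, 2.02-fold, followed by TGFBR2 with 1.62-fold, and TGFBR3 fell to 0.554 of its siNC level. Thus 4 of 9 (44.4%) were called at an adjusted p under 0.05, where 41.8% of all genes tested were called. By direction, 3 of the 9 were higher against 21.3% of all genes, and 1 was lower against 20.5%. SMAD7, TGFBR2 and TGFBR3 also passed an absolute log2 fold change of 0.58, which 17% of all genes did with the adjusted p. The 3 libraries of one group did not overlap those of the other in 4 of the 9 genes, and in 52% of all genes tested. The share of the pathway genes called was thus near the share of all genes, and the median log2 fold change was 0.04 against 0.02 over all genes.

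**Figure D1:**
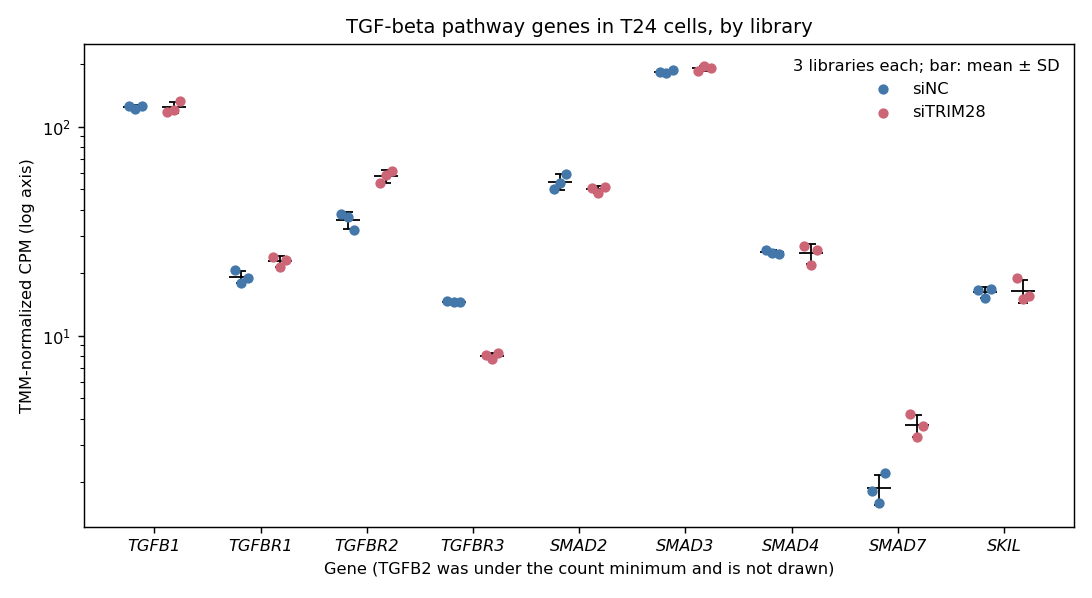
Expression of the 9 tested TGF-beta pathway genes in each library as TMM-normalized CPM on a log axis, with 3 siNC (blue) and 3 siTRIM28 (red) libraries per gene and black bars for the mean ± SD. The siNC and siTRIM28 points are separate for TGFBR1, TGFBR2, TGFBR3 and SMAD7 and overlap for the other genes.

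Of the ligands, TGFB1 was the one with a measurable level. TGFB1 (ENSG00000105329, GRCh38 chromosome 19, 41301587 to 41353044, minus strand) had 1748, 1688 and 1604 counts in siNC and 1655, 1428 and 1575 in siTRIM28. After TMM scaling this was 124 ± 2.25 CPM for siNC (mean ± SD, n = 3, as in all such values below) and 124 ± 7.93 CPM for siTRIM28. The siTRIM28 libraries lay on both sides of the siNC libraries. Its log2 fold change was −0.0072 with a 95% interval of −0.12 to 0.11 (adjusted p = 0.925, edgeR), and its sign changed with the scaling. TGFB2, whose product signals through the same receptors with the help of TGFBR3, had no count in any siNC library and 0, 3 and 1 counts in siTRIM28. A count of 0 allows up to 3 counts, or 0.215 to 0.234 CPM in the siNC libraries, for counting error only, so a difference in TGFB2 was not detectable at this depth. TGFB3, the remaining isoform, was named with the wider ligand list and was detected at a low level, with 65, 66 and 57 counts in siNC and 37, 38 and 36 in siTRIM28. All siTRIM28 values of TGFB3 were under the siNC values, and it fell by 0.65 on the log2 scale (standard error 0.157, adjusted p = 0.00562, edgeR).

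The signalling receptors were both higher, TGFBR2 more than TGFBR1. TGFBR2 (ENSG00000163513, chromosome 3, 30606478 to 30694142, plus strand), the ligand-binding type II receptor kinase, had 533, 511 and 409 counts in siNC and 752, 700 and 730 in siTRIM28. Its level was 38.3, 36.8 and 32.0 CPM in the siNC libraries and 53.5, 58.9 and 61.5 CPM in the siTRIM28 libraries. The lowest siTRIM28 library was well above the highest siNC library. The log2 fold change was 0.70 with a 95% interval of 0.52 to 0.87 (standard error 0.0796, adjusted p = 2.98e-05, by the quasi-likelihood test of edgeR after Benjamini-Hochberg correction). Permuting the libraries exactly, two-sided, gave p = 0.1, the smallest that 3 libraries against 3 allow, and the same p was found for TGFBR1, TGFBR3 and SMAD7. Leaving out each library in turn gave 0.62 to 0.75, and the call was kept each time.

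TGFBR1 (ENSG00000106799, chromosome 9, 99104038 to 99149448, plus strand), the type I kinase that phosphorylates the SMADs, had 286, 249 and 241 counts in siNC and 335, 252 and 274 in siTRIM28. In CPM these were 20.5, 17.9 and 18.8 in siNC and 23.8, 21.2 and 23.1 in siTRIM28. The groups did not overlap, but siNC replicate 1 and siTRIM28 replicate 2 came close. TGFBR1 rose by 0.25 on the log2 scale (standard error 0.0761, 95% interval 0.08 to 0.42, adjusted p = 0.0196, edgeR). This call was lost with DESeq2 (0.25, adjusted p = 0.105), without siNC replicate 2 (0.20, adjusted p = 0.0888, edgeR), without siNC replicate 3 (0.24, 0.0731), without siTRIM28 replicate 3 (0.23, 0.0531), and without both libraries that stood apart (0.20, 0.0834).

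TGFBR3, or betaglycan, is a co-receptor that presents ligand, TGFB2 above all, to TGFBR2, and it was the member that fell. TGFBR3 (ENSG00000069702, chromosome 1, 91680343 to 91906335, minus strand) had 203, 200 and 185 counts in siNC and 113, 92 and 98 in siTRIM28. The siNC libraries had 14.6, 14.4 and 14.5 CPM and the siTRIM28 libraries 8.04, 7.75 and 8.25 CPM. Values within a group were close together, and every siTRIM28 library was far under every siNC library. TGFBR3 fell by 0.85 on the log2 scale (standard error 0.0832, 95% interval −1.03 to −0.67, adjusted p = 8.77e-06, edgeR). Between −0.88 and −0.84 was found when single libraries were left out. 

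**Figure D2:**
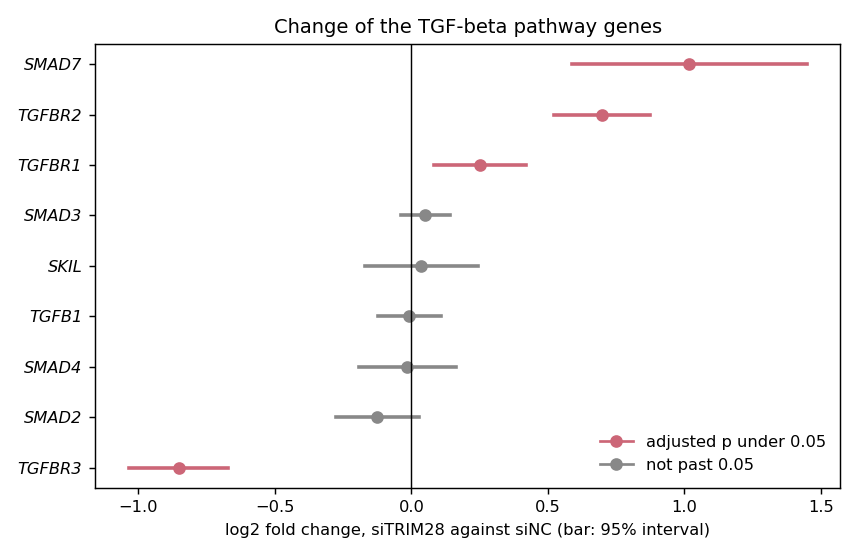
Log2 fold change of the 9 tested genes in siTRIM28 against siNC, with bars for the 95% interval from edgeR (n = 3 libraries per group). SMAD7 (1.02), TGFBR2 (0.70) and TGFBR1 (0.25) lie above 0 and TGFBR3 (−0.85) below it with intervals that do not cross 0, and the bars of the other 5 genes cross 0.

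The RefSeq start windows of the receptors that passed both thresholds, 250 bases before to 50 after an annotated start in GRCh38.p14, are shown because these genes moved in opposite directions. RefSeq gives 2 such windows for TGFBR2 and 1 for TGFBR3, and gene counts do not tell which start T24 cells use. The TGFBR2 window is chr3:30606351-30606650 on the plus strand and the TGFBR3 window is chr1:91886102-91886401 on the minus strand. Capitals mark a match to TGANTCA, the AP-1 motif, and neither window held CAGAC, the short SMAD-binding motif, on either strand.
TGFBR2: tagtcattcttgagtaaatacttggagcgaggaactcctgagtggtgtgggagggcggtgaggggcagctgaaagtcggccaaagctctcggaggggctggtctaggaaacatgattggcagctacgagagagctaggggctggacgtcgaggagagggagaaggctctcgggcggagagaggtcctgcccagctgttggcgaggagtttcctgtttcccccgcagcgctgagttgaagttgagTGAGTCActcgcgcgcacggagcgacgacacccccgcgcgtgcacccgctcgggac
TGFBR3: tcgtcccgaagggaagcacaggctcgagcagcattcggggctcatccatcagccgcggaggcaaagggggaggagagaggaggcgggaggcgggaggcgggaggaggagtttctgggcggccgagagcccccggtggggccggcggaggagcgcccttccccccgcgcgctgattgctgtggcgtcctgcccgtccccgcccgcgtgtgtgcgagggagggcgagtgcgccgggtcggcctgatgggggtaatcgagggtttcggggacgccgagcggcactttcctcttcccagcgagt
TGANTCA was found in 7.71% of the 35116 RefSeq windows of this length, on either strand, and CAGAC in 45.3%. The other TGFBR2 window, chr3:30606106-30606405, held neither motif. These matches describe the sequence and are not measured binding.

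The receptor SMADs and the common SMAD showed little or no difference. SMAD2 (ENSG00000175387, chromosome 18, 47808957 to 47930837, minus strand) had 701, 749 and 760 counts in siNC and 710, 570 and 611 in siTRIM28, or 50.3, 53.9 and 59.4 CPM against 50.5, 48.0 and 51.4 CPM. siNC replicate 1 lay within the siTRIM28 range, so the groups overlapped. The log2 fold change of −0.13 (95% interval −0.28 to 0.03) did not pass the test (adjusted p = 0.172, edgeR).

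SMAD3 (ENSG00000166949, chromosome 15, 67063763 to 67193180, plus strand), the DNA-binding partner of SMAD2, had 2538, 2512 and 2385 counts in siNC and 2588, 2316 and 2254 in siTRIM28, or 183 ± 2.89 and 190 ± 5.38 CPM. The siTRIM28 libraries reached higher, but siTRIM28 replicate 1 lay within the siNC range. Its log2 fold change was 0.05 (95% interval −0.04 to 0.14, adjusted p = 0.357, edgeR). Without both libraries that stood apart it was 0.08 and passed (adjusted p = 0.0431, edgeR), so that 4 members were again called there, SMAD3 in place of TGFBR1.

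SMAD4 (ENSG00000141646, chromosome 18, 51028528 to 51080083, plus strand), which joins both receptor SMADs, had 358, 344 and 315 counts in siNC and 377, 258 and 304 in siTRIM28. Its siTRIM28 libraries enclosed all siNC libraries, with 25.0 ± 0.586 CPM in siNC and 24.7 ± 2.67 in siTRIM28. A log2 fold change of −0.02 was found (95% interval −0.19 to 0.16, adjusted p = 0.897, edgeR), and its sign changed with the scaling.

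Of the inhibitors, SMAD7 rose and SKIL did not pass the test. SMAD7 (ENSG00000101665, chromosome 18, 48919853 to 48950424, minus strand), which binds the activated receptor and brings SMURF ubiquitin ligases to it, was the least abundant of the tested members, with 25, 22 and 28 counts in siNC and 59, 39 and 44 in siTRIM28. These counts gave 1.79, 1.58 and 2.19 CPM in siNC and 4.20, 3.28 and 3.70 CPM in siTRIM28. The groups were separate, with the lowest siTRIM28 library above the highest siNC library. The log2 fold change of 1.02 had a wide 95% interval of 0.59 to 1.45 (standard error 0.196, adjusted p = 0.00142, edgeR), and it was 0.91 to 1.14 without single libraries.

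SKIL (ENSG00000136603, chromosome 3, 170357342 to 170396835, plus strand) encodes SnoN, a nuclear corepressor of the SMADs. It had 230, 209 and 214 counts in siNC and 264, 178 and 184 in siTRIM28, or 16.1 ± 0.913 and 16.4 ± 2.07 CPM. siTRIM28 replicate 1 was above all siNC libraries and the other siTRIM28 libraries were at their lower end. On the log2 scale the fold change was 0.04 (95% interval −0.17 to 0.24, adjusted p = 0.785, edgeR), and its sign changed when siNC replicate 2 or siTRIM28 replicate 1 was left out (−0.01 and −0.08).

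SMAD6, the other inhibitory SMAD, acts mainly on the BMP branch and moved in the same direction as SMAD7. It had 81, 86 and 82 counts in siNC and 164, 142 and 129 in siTRIM28, and every siTRIM28 library was above every siNC library. SMAD6 rose by 0.91 on the log2 scale (standard error 0.103, adjusted p = 2.98e-05, edgeR). SMAD1, a receptor SMAD of the BMP branch, went the other way, with 170, 165 and 159 counts in siNC and 80, 64 and 58 in siTRIM28. It fell by 1.19 on the log2 scale (standard error 0.105, adjusted p = 4.01e-06, edgeR). SMAD5 and SMAD9, which carry the same signal, had log2 fold changes of −0.04 (adjusted p = 0.58) and 0.17 (adjusted p = 0.447).

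The start windows of SMAD7 and SMAD6 are shown for the pair of inhibitory SMADs that rose together. RefSeq gives 3 windows for SMAD7, and the one printed, chr18:48950916-48951215 on the minus strand, is the farthest upstream, above the end of the gene in the count table. The SMAD6 window is chr15:66701986-66702285 on the plus strand. Capitals mark CAGAC in SMAD7 and GTCTAGAC, the palindrome of the SMAD-binding motif, in SMAD6.
SMAD7: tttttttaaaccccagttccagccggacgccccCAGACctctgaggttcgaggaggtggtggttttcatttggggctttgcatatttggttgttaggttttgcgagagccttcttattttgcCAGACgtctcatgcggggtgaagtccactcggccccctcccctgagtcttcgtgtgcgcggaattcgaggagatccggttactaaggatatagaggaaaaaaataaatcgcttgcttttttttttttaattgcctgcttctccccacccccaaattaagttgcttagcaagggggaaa
SMAD6: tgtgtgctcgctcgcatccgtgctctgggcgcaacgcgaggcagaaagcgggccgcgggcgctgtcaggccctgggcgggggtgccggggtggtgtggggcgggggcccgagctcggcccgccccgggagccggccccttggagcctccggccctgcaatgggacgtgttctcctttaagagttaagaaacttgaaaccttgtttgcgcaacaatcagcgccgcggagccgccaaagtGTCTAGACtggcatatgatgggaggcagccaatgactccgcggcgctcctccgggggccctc
The SMAD7 window held 2 matches of CAGAC, and the other SMAD7 windows held 1 and 0 on either strand. GTCTAGAC was present in 0.202% of all windows, in that of SMAD6 and in none of the 25 windows of the 10 members. CAGAC, in 45.3% of all windows, is a common word, and no binding was measured.

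Levels of different genes were compared per kilobase of exon as the count table gives it. In siNC the order was TGFB1 (38.0 ± 0.688 CPM per kilobase), SMAD3 (18.2 ± 0.288), TGFBR2 (5.04 ± 0.465), TGFBR1 (2.27 ± 0.157), SKIL (1.98 ± 0.112), TGFBR3 (1.69 ± 0.0103), SMAD2 (1.50 ± 0.125), SMAD4 (1.27 ± 0.0299) and SMAD7 (0.470 ± 0.0777), and TGFB2 had no count. No neighbours in this order overlapped between the siNC libraries. With the longest coding transcript of GENCODE v29 in place of the exon length the first 4 places and that of SMAD7 were the same by mean. SMAD4 moved from rank 8 to rank 5, at 2.85 ± 0.0669, and its siNC libraries overlapped those of TGFBR1 at rank 4 (2.93 ± 0.203). SKIL and TGFBR3 were both at 2.24. In siTRIM28, by the exon lengths of the count table, TGFBR3 (0.934 ± 0.0296 CPM per kilobase) was at the level of SMAD7 (0.945 ± 0.116), and their libraries overlapped. This depends on the lengths used, 8.577 kilobases for TGFBR3 and 3.946 for SMAD7. With the longest coding transcripts, of 6.465 and 4.428 kilobases, every siTRIM28 library of TGFBR3 was above those of SMAD7.

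The balance between members was compared within each library, as log2 ratios of counts per base, which need no scaling between libraries. The exon lengths of the count table were used. They set the size of a ratio, but they cancel in its shift between the groups. TGFBR2 over TGFBR1 was 1.15 ± 0.137 in siNC and 1.60 ± 0.163 in siTRIM28, a ratio of 2.21 against 3.03. TGFBR3 over TGFBR2 went from −1.57 ± 0.133 to −3.12 ± 0.103, a ratio of 0.336 against 0.115. This shift of −1.55 was the largest of the 4 ratios, since the co-receptor fell while the receptor rose.

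SMAD7 over SMAD4 went from −1.42 ± 0.243 to −0.40 ± 0.0548, or a ratio of 0.373 against 0.757. SMAD3 over SMAD2 shifted least, from 3.61 ± 0.103 to 3.78 ± 0.0858, although neither gene passed the test alone. The groups did not overlap in any of the 4 ratios, and they did not overlap in 52% of all genes tested, taken singly. Each ratio had an exact two-sided permutation p of 0.1, also after Benjamini-Hochberg adjustment over the 4, the smallest possible p here. This test cannot pass 0.05 with 3 libraries against 3, and no other test was run on the ratios.

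**Figure D3:**
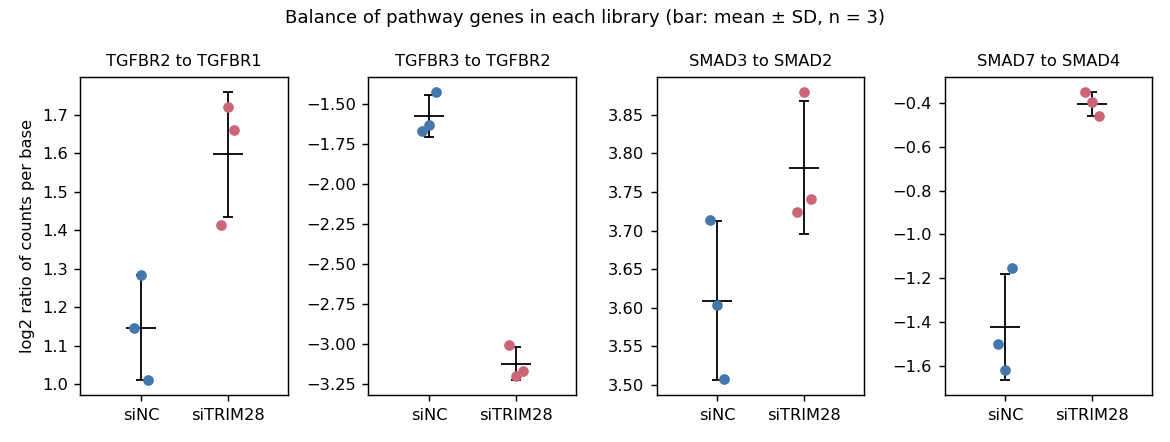
Log2 ratio of counts per base for 4 pairs of pathway genes in each siNC (blue) and siTRIM28 (red) library, with black bars for the mean ± SD (n = 3) and a separate vertical range, which does not start at 0, in each panel. TGFBR3 to TGFBR2 falls from −1.57 to −3.12, and the other ratios are higher in siTRIM28, SMAD3 to SMAD2 by 0.17.

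The wider pathway was described by 8 lists of 121 genes in all, with each gene counted once and TDGF1, which was not matched in the count table, included. Of these, 94 were tested, 27 were higher, 20 were lower and 47 were not called, so 50% were called against 41.8% of all genes. Both directions were present in 7 of the 8 lists. Genes of these lists named below, other than TGFB3, the remaining SMADs and those past both thresholds, were chosen after their values were seen.

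Most of the other receptors tested were lower. Of 13 genes, 12 were matched (TDGF1 was not) and 8 were tested. Of these 5 were lower, against 20.5% of all genes, and none was higher, with a median log2 fold change of −0.41. ACVR1B, the type I receptor of activin, had 15.6 ± 0.548 CPM in siNC and 8.99 ± 1.07 CPM in siTRIM28 (−0.79 on the log2 scale, adjusted p = 4.45e-05, edgeR). BMPR2, the type II receptor of the BMPs, went from 29.4 ± 2.01 to 18.0 ± 1.75 CPM (−0.71, adjusted p = 3.67e-05), and ENG, or endoglin, a co-receptor related to TGFBR3, from 19.0 ± 1.44 to 11.4 ± 0.825 CPM (−0.74, adjusted p = 3.74e-05). The co-receptors TGFBR3 and ENG were thus both lower in all 3 siTRIM28 libraries than in any siNC library. The activin and BMP receptors ACVR2B (−0.50) and BMPR1A (−0.31) were also lower, ACVR2B not with DESeq2, without siNC replicate 3, without siTRIM28 replicate 3 or without both libraries that stood apart. In that last setting 4 genes of the list were lower and 1 was higher, and 1 gene was also higher with upper-quartile scaling, with a filter of 1 count in total and without siTRIM28 replicate 1.

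Of the 18 genes in the list of other ligands, which holds the protease BMP1, 10 were tested. Of these 1 was higher, 2 were lower and 7 were not called, so 30% were called against 41.8% of all genes. The 1 higher gene was BMP1 (0.27), which frees ligands from the matrix and is not itself a ligand. Besides TGFB3, GDF11 (−0.23) was lower. The call of BMP1 was lost with DESeq2, and without siNC replicate 2, siNC replicate 3 or siTRIM28 replicate 2. It was also lost without both libraries that stood apart, where no gene of the list was higher and 3 were lower. GDF11 was not called without siNC replicate 3 or siTRIM28 replicate 3, and without siNC replicate 3 the number called was 1. Among 17 genes of latency, activation and extracellular control, 9 were tested and none changed by 0.58 or more. Of the 9 tested, 44.4% were called, against 41.8% of all genes. The latent TGF-beta binding proteins went both ways, LTBP1 higher (0.30) and LTBP2 lower (−0.36). ITGAV (0.21), an integrin subunit that takes part in releasing latent TGF-beta, was higher and FURIN (−0.30), which cleaves the TGF-beta precursor, was lower. The other integrin subunits of the list, ITGB6 and ITGB8, were under the count minimum. ITGAV was not called without siNC replicate 1, where the number called was 2. FURIN was not called with DESeq2, without any one siNC library, without siTRIM28 replicate 1 or without both libraries that stood apart, where 3 genes of the list were higher and 1 was lower.

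In the list of corepressors and nuclear partners, all 11 genes were tested, 4 were higher, 1 was lower and 6 were not called. The share called was 45.5%, against 41.8% of all genes. FOXH1, a DNA-binding partner of SMAD2, had 100, 104 and 87 counts in siNC and 228, 127 and 144 in siTRIM28. All siTRIM28 libraries of FOXH1 were higher, siTRIM28 replicate 1 most of all (0.87 on the log2 scale, adjusted p = 5.84e-04, edgeR). The corepressors TGIF1 (0.21) and TGIF2 (−0.48) went in opposite directions, ZEB2 (0.36) and the acetyltransferase EP300 (0.21) were higher, and TRIM33, a ubiquitin ligase for SMAD4 in the same protein family as TRIM28, did not pass the test (−0.09, adjusted p = 0.417). TGIF1 was not called with DESeq2, without any one siNC library, without siTRIM28 replicate 1 or without both libraries that stood apart, and EP300 not with DESeq2 or without siNC replicate 1, siNC replicate 3 or siTRIM28 replicate 2. The number called in this list was 3 without siNC replicate 1 and 3 without siNC replicate 3.

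Of 21 genes of receptor and SMAD turnover and feedback, 18 were tested, 6 were higher, 3 were lower and 9 were not called. The share called was 50%, against 41.8% of all genes. PPP1R15A, or GADD34, which as a partner of SMAD7 brings a phosphatase to TGFBR1 and is also a stress response gene, had the largest change. Its level was 132 ± 1.24 CPM in siNC and 264 ± 12.1 in siTRIM28 (1.00 on the log2 scale, adjusted p = 2.26e-08, edgeR). The other changes of the list were under 0.58, with SMURF1 (0.45), a ubiquitin ligase that SMAD7 recruits, as the next rise and the deubiquitinase UCHL5 (−0.54) as the largest fall. Without siNC replicate 1 the number called was 5, and without both libraries that stood apart 6 genes were higher and 5 were lower.

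Known TGF-beta induced target genes changed in both directions, more often upwards. This list, like the others, was chosen with earlier results of these data known, so its shares are description and no test. Of 30 genes, 27 were tested, 13 were higher, 5 were lower and 9 were not called, so 66.7% were called against 41.8% of all genes, with a median log2 fold change of 0.43 against 0.02. Past both thresholds were 10 of the 27 genes tested, where 17% of all genes tested were.

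Among the largest rises were those of BHLHE40, a transcription factor (1.23, adjusted p = 1.37e-07, edgeR), HMGA2, a chromatin protein of mesenchymal transition (1.07, adjusted p = 1.37e-07), and CDKN1A, the cell cycle inhibitor p21 and also a target of p53 (0.99, adjusted p = 2.40e-06). COL1A1, a fibrillar collagen that also stands on the fibroblast marker list, rose from 0.929 ± 0.265 to 3.27 ± 0.633 CPM (1.78, adjusted p = 2.22e-04). Of the other fibroblast markers, THY1 (27.4 CPM in siNC and 28.8 in siTRIM28) and PDGFRA (1.26 and 1.15) passed the count minimum and were not called. The rest, among them COL3A1, DCN, LUM and FAP, were under the minimum. SNAI1, a repressor of CDH1, had 8 to 12 counts in siNC and 14 to 20 in siTRIM28. Its log2 fold change was 0.99 (adjusted p = 0.0155, edgeR), and the call was lost with DESeq2 (adjusted p = 0.0931) and without siNC replicate 2 (0.0547), siNC replicate 3 (0.0526), siTRIM28 replicate 2 (0.0557) or both libraries that stood apart (0.0586).

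TGFBI, a matrix protein first described as a TGF-beta induced gene, went against the more frequent direction of the list. It had 917, 932 and 822 counts in siNC and 380, 375 and 348 in siTRIM28, and every siTRIM28 library was under every siNC library. TGFBI fell by 1.17 on the log2 scale (standard error 0.0675, adjusted p = 1.42e-07, edgeR). CCN2 (−0.43), another classical target, ACTA2 (−0.56), LOXL2 (−0.50) and TPM1 (−0.17) were also lower. TGFBI was the one gene of the list that fell by more than 1 on the log2 scale.

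**Figure D4:**
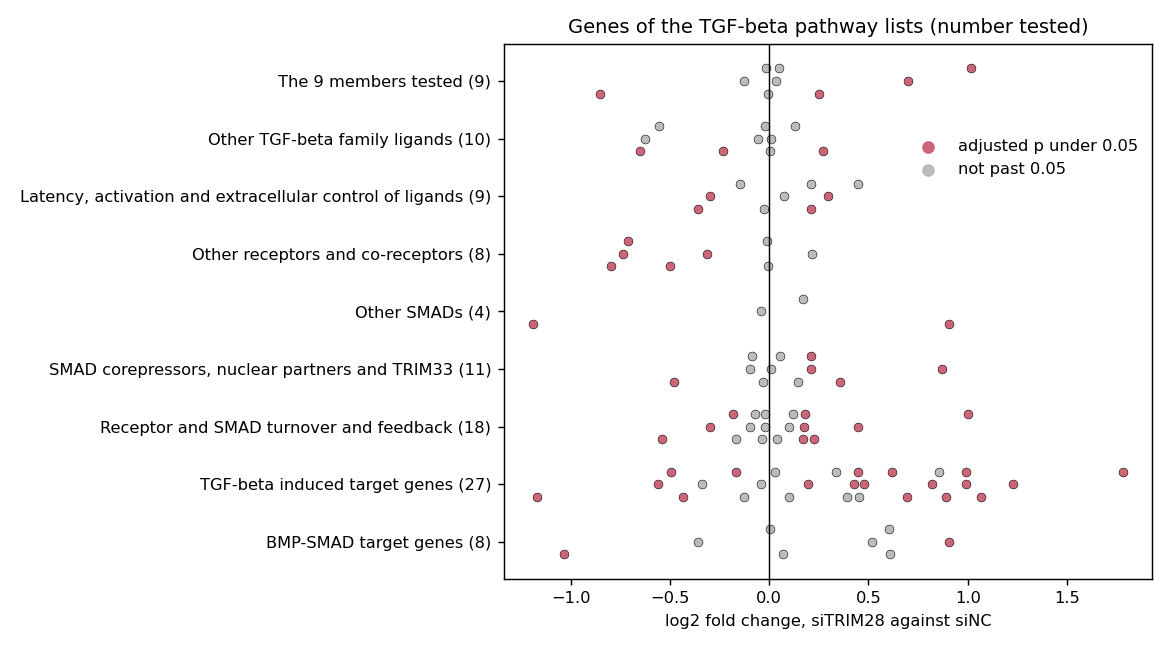
Log2 fold change in siTRIM28 against siNC for the 9 tested members and for the tested genes of 8 pathway lists, 1 point per gene (red for an adjusted p under 0.05, grey otherwise), with vertical offsets only to separate points. The called genes among the other receptors lie below 0, and called TGF-beta targets lie on both sides, 13 above and 5 below.

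BMP-SMAD target genes, 8 in all and all tested, had 1 gene higher, 1 lower and 6 not called, with a median of 0.30. The share called was 25%, against 41.8% of all genes. ID3, a target of SMAD1 and SMAD5 and an inhibitor of transcription factors, had 115, 116 and 121 counts in siNC and 61, 55 and 44 in siTRIM28, and the groups were separate. ID3 fell by 1.03 on the log2 scale (standard error 0.136, adjusted p = 8.74e-05, edgeR), while SMAD6, a member of this list too, rose. ID1, the best known of these targets, had a log2 fold change of 0.0027 (adjusted p = 0.989). Without siTRIM28 replicate 1, and without both libraries that stood apart, 4 genes of this list were called.

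For the member with the largest rise and the one with the largest fall, the genes with the most similar pattern were sought by Pearson's r of log2 CPM over the 6 libraries, among tested genes with a mean of at least 50 counts. For SMAD7 these were SLC25A20 (r = 0.999), a mitochondrial carnitine carrier, SGMS1 (0.998), a sphingomyelin synthase, and NSUN2 (0.996), an RNA methyltransferase, among 12828 genes. For TGFBR3 they were EXT2 (r = 0.99986), a heparan sulfate polymerase, SNX12 (0.99985), a sorting nexin, and TMEM109 (0.99979), a membrane protein, among 12827 genes. The 6 libraries share their 2 groups, and such values contain the difference between them: 1621 genes had r over 0.9 with SMAD7 and 2518 with TGFBR3. SMAD7 itself had a mean of 36.2 counts, under the minimum set for the other genes. Counting error therefore enters its pattern, and its highest r values are the best of many genes over 6 libraries.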

How the data were processed

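The authors deposited raw read counts per gene for 6 libraries, 3 siNC and 3 siTRIM28, with exon lengths and GRCh38 coordinates. The submitters' processing notes list fastp 0.23.1, STAR 2.7.6a and featureCounts without role or order. The annotation release, the strand setting and any removal of duplicates are not given in the sources used here. A deposited table of genes that the authors chose as changed was not used. Groups came from the library titles.

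A gene entered the fit with 10 or more counts in 3 or more libraries. TMM factors scaled the libraries, and the groups were compared by quasi-likelihood F tests (glmQLFit and glmQLFTest of edgeR 4.0.16, R 4.3.3) with no term but the condition. The Benjamini-Hochberg adjustment ran over 18474 genes, and 0.05 was the threshold. The common biological coefficient of variation was 0.0733. Exact two-sided permutation was used for single genes and for ratios (pseudocount of 0.5). The test was checked on simulated counts. Floors and intervals of counts cover counting error only, and reads were not treated as independent molecules. No column was left unmapped.

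The members, the gene lists and the alternatives were chosen with earlier results of these data known. Named by rule were all members, TRIM28, the remaining SMADs, TGFB3, and the 3 genes most like SMAD7 and TGFBR3. The rule also took at most 6 genes per list. These had an adjusted p under 0.05, a log2 fold change of 0.58 or more in size and no overlap. A gene that the rule also names is not reported here. Alternatives were DESeq2 1.42.0, limma-voom (limma 3.58.1), scaling by total counts, upper quartiles or RLE, other count filters, a replicate block, each library left out, close pairs summed and, chosen after seeing the data, both libraries that stood apart left out and transcript lengths of GENCODE v29. Start windows came from RefSeq (GRCh38.p14), and all 10 members matched. Figures were drawn with matplotlib 3.10.9.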

Additional observations from a re-analysis of the deposited data

How the results depend on the processing

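TGFBR2, TGFBR3 and SMAD7 kept their direction and their call under every alternative run, and 3 or 4 members were called in each. TGFBR1 was 0.25 with DESeq2 (adjusted p = 0.105), 0.20 without both libraries that stood apart, and 0.20 to 0.31 without single libraries. SMAD3 was 0.0836 without both libraries that stood apart and then passed, and 0.0220 to 0.0721 without single libraries. The log2 fold change of TGFB1 turned to 0.0272 with upper-quartile scaling, 0.0118 with total counts, and 0.0334 without both libraries that stood apart, and ranged from −0.0673 to 0.0274 without single libraries. That of SMAD4 turned to 0.0183 with upper-quartile scaling, 0.0027 with total counts and 0.0079 with close pairs summed, and ranged from −0.0807 to 0.0593, with −0.0931 without both libraries that stood apart. That of SKIL turned to −0.0505 without both libraries that stood apart and ranged from −0.0765 to 0.0900. None of these 3 passed the test under any alternative, and the cause of the turns was not tested. The median log2 fold change over all genes stayed between −0.0009 and 0.07 across the settings.

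With DESeq2 the numbers called were 3 corepressors and partners and 5 turnover genes, and with close pairs summed 3 and 4. Without single libraries the numbers called were 1 to 4 genes of the ligand list, 2 to 4 latency genes and 3 to 5 corepressors and partners. They were 5 to 12 for turnover genes and 2 to 4 for BMP-SMAD targets. Without both libraries that stood apart, 4 BMP-SMAD targets were called. The number of all genes called was 5878 with DESeq2, 5932 with close pairs summed, 8080 without both libraries that stood apart and 6319 to 8130 without single libraries.

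Of 20 called genes named after their values were seen, 12 kept their call in every alternative and 8 lost it in some. With close pairs summed it was lost for ACVR2B, EP300, FURIN, GDF11, HNRNPUL1 and TGIF1.

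Replicate numbers did not pair the samples: deviations of same-numbered libraries correlated at 0.05, −0.01 and 0.04. With the number as a replicate block 7913 genes and the same count of 4 members were called, and no call of a member was changed. Fits for TGFB2, and its ratio to TGFB1, were not run because it had at most 3 counts in any library. At this depth SMAD7, SNAI1, COL1A1 and TGFB3 rested on under 70 counts per library, with standard errors of 0.157 to 0.286 on the log2 scale.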

Other observations

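Transcripts that overlap the members in the count table were looked at after the values of the members were known, because the kit was stranded but the strand setting of the counting is not given. SMAD3-DT, which runs from the opposite strand at the SMAD3 locus, had 20, 24 and 25 counts in siNC and 69, 58 and 67 in siTRIM28. All siTRIM28 libraries were higher (log2 fold change 1.59, adjusted p = 2.92e-05, edgeR), beside a log2 fold change of 0.05 for SMAD3. HNRNPUL1, an RNA-binding protein gene on the opposite strand that overlaps TGFB1, had 5082, 5123 and 4613 counts in siNC and 4498, 4047 and 4044 in siTRIM28 and was lower by a small amount (−0.13, adjusted p = 0.0219, edgeR), a call lost with upper-quartile scaling, with DESeq2 and without siNC replicate 1 or siNC replicate 2. An unnamed transcript on the strand of SMAD4, ENSG00000267699, had 110, 124 and 92 counts in siNC and 135, 76 and 91 in siTRIM28 and did not pass the test. On the strand of TGFB1 lies ENSG00000286177, with 112 to 146 counts per library, and on that of SMAD2 the pseudogene MTCO2P2, with 28 to 66, and neither passed the test. SMAD7 overlapped ENSG00000299449 on the opposite strand, with 3, 7 and 5 counts in siNC and 8, 6 and 15 in siTRIM28. SMAD7 itself had 25, 22 and 28 counts in siNC and 59, 39 and 44 in siTRIM28. How reads in shared exons were given to either gene is not known, so TGFB1, SMAD2, SMAD3, SMAD4 and SMAD7 are less certain than the receptors. The transcripts that TGFBR1, TGFBR2 and TGFBR3 overlapped had at most 1 count in any library.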
